A study of Mus musculus with 34 samples.

Results

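The keratins of the interfollicular epidermis, the sheet of epidermis between the hair follicles, were followed here as 8 genes: Krt5, Krt14, Krt15, Krt1, Krt10, Krt2, Krt9 and Krt77. They were taken by gene symbol from the deposited expression tables, where each stood on 1 line among 47633 genes, 51 of them with a keratin symbol. The mice were 8 to 10 weeks old, and their skin RNA was sequenced. Footpad skin of Krt17 knockout and wild-type mice was taken unirradiated (T0) or after 40 Gy of ionizing radiation, at T3, T6 or T9, labels that carry no unit of time. Back skin, whose hair was growing, was from p53 knockout, Krt17 knockout and wild-type mice, unirradiated (0 h) or given 5 Gy 6 h or 24 h earlier. Krt17 is itself a keratin, made in growing follicles and in stressed epidermis, and p53 is the transcription factor that responds to DNA damage. The labels name the knockouts by gene only, without the allele, the strain or the sex. Each of the 17 groups held 2 samples, 34 in all, and the value used is the authors' mean FPKM of a group (fragments mapped to a gene, scaled by transcript length and by the number of mapped fragments). Being per length, FPKM levels of different genes can be set side by side. Such comparisons also depend on how reads shared between similar genes are split. No spread between samples was given, so every difference below is a size without a test, and neighbouring levels cannot be said to differ beyond the sample spread. Differences are log2 ratios of (FPKM + 1), and 2-fold, a log2 ratio of 1 in either direction, was the size from which a member was counted.

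Keratins are the filament proteins of epithelial cells and assemble as pairs of a type I and a type II chain. In the basal layer of the epidermis, where cells divide, the pair is Krt14 (type I) with Krt5 (type II), and Krt15 is a further type I keratin of basal cells and of the follicle's stem cell region. Cells that leave the basal layer switch to Krt10 (type I) with Krt1 (type II). Krt2 (type II) is made in the upper living layers, and in mice is known from sole, ear and tail skin. Krt9 (type I) is the keratin of palm and sole epidermis. Krt77 is a type II keratin, known in humans from the ducts of sweat glands.

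The type I members lie on chromosome 11 and the type II members on chromosome 15, all on the minus strand (GRCm38, GENCODE M21). Krt10 spans 99385254 to 99389364, Krt15 spans 100131758 to 100135928, Krt9 spans 100186781 to 100193246 and Krt14 spans 100203162 to 100207548 on chromosome 11. Krt9 and Krt14 are neighbours among the 27 protein-coding keratin genes there. On chromosome 15, Krt5 spans 101707070 to 101712898, Krt2 spans 101810689 to 101818169, Krt1 spans 101845426 to 101850794 and Krt77 spans 101858731 to 101869705. Krt2, Krt1 and Krt77 are consecutive among 26 keratin genes.

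The 250 bases before the start of Krt9, Krt2 and Krt77 are shown because these members differed most between the body sites. They are from RefSeq (GRCm38.p6), minus strand, 5′ to 3′. Of the 8 members, 6 were matched in the RefSeq promoter table, all but Krt1 and Krt15. Capitals mark matches, on either strand, to TATAA, to CCAAT or to GCCNNNGGC, and none of these matches overlap. The Krt9 window is chr11:100193247-100193496, the Krt2 window chr15:101818170-101818419 and the Krt77 window chr15:101869706-101869955.
Krt9: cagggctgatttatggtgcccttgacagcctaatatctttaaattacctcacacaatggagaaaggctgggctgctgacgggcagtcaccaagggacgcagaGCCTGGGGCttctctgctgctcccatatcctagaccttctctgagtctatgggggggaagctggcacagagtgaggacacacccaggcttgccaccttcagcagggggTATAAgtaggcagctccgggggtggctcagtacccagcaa
Krt2: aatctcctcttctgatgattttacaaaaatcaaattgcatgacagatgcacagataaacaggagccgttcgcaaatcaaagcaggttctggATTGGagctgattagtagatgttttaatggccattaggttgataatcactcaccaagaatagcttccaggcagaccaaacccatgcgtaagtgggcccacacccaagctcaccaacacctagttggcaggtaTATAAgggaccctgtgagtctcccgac
Krt77: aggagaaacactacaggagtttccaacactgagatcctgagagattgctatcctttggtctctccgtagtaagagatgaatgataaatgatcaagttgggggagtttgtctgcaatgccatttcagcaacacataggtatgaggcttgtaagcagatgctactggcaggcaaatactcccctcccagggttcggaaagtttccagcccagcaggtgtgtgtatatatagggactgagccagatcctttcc
TATAA ended 36 bases before the start in Krt9, 23 before it in Krt2 and 22 before it in Krt10. It was not in the Krt77, Krt5 or Krt14 windows. The Krt14 window, chr11:100206031-100206280, lies inside the span given above for that gene. It therefore does not show the bases before the start of that span. Of 32851 windows of this length in the table, 22.8% held TATAA, 33.8% CCAAT, 13.7% GCCNNNGGC and 6.75% the letters TGANTCA, which no member window held. These letters were chosen after the windows had been read and describe the sequence only.

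Krt17 stood at 18.2 to 68.1 FPKM in Krt17 knockout footpad, against 92.6 to 835 in wild-type footpad, and at 14.7 to 29.9 in Krt17 knockout back skin, against 1358 to 1919 in wild-type back skin. Summed FPKM of 12 hair shaft markers was 6.74 to 33.7 in footpad and 3372 to 11575 in back skin, while that of 6 sweat gland markers was 138 to 219 in footpad and 36.9 to 48.2 in back skin. Trp53 was listed in p53 knockout skin at 18 to 28.8 FPKM, against 19.3 to 43.8 in wild-type back skin, and a whole-gene value does not check a deletion of part of it. The wild-type footpad column at T3 stood apart: Krt10 and Krt2, at 5383 FPKM or more in every other footpad column, were listed there at 0. They were treated as missing in it, as were 6 further genes, among them the granular layer genes Hrnr and Rptn, and its FPKM total was 916989 where the highest footpad total was 1005223. Hrnr and Rptn were also listed at 0, and treated as missing, in the Krt17 knockout footpad column at T3. Krt14 shared 13.9% of its 50-base transcript windows with other genes (11% of its windows with Krt16), and Krt5 shared 12.2%, mostly with Krt6a. For Krt10 the share was 2.37%, for Krt15 0.64%, and for Krt1, Krt2, Krt9 and Krt77 it was 0%. Reads from shared windows could be split differently between these genes.

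The widest differences among these keratins were between the body sites. In unirradiated footpad, the suprabasal keratins Krt10 and Krt2 were the most abundant members, at 14341 and 12261 FPKM in Krt17 knockout and 15742 and 15697 in wild-type mice. In unirradiated back skin the basal pair led, with Krt14 at 2140.1 and Krt5 at 1426 FPKM in Krt17 knockout and at 2025 and 1564 in wild-type mice. These samples also held much follicle RNA. Their 9 markers of the follicle's inner root sheath summed to 17974 FPKM in Krt17 knockout and 15908 in wild-type mice. The part of follicle cells in the Krt14 and Krt5 levels was not tested. The 8 genes together made up 3.53% to 4.57% of the FPKM total in footpad, leaving out the wild-type T3 column, and 0.364% to 0.739% in back skin. Whether the tables of the body sites were normalized together is not given in the sources used here, so levels across sites are set side by side.

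Krt9 and Krt2 were far higher in footpad. Krt9 stood at 335 FPKM in Krt17 knockout and 549 in wild-type footpad, against 0.0386 in Krt17 knockout and 0.0898 in wild-type back skin. Krt2, at the footpad levels above, stood at only 16 FPKM in Krt17 knockout and 6.32 in wild-type back skin. As log2 ratios of (FPKM + 1), footpad over back skin, Krt2 had 9.50 in Krt17 knockout and 11.07 in wild-type mice, and Krt9 had 8.34 and 8.98. Krt77 was the reverse, at 0.753 and 0.64 FPKM in Krt17 knockout and wild-type footpad, against 585 and 526 in back skin of the same genotypes. For these 3 genes no footpad column came near any back skin column. Krt77 ranged from 0.414 to 0.915 FPKM over 8 footpad columns and from 422 to 703 over 9 back skin columns. Krt2 ranged from 5383 to 15697 FPKM over 7 footpad columns and from 1.07 to 17.1 over 9 back skin columns. Krt9 ranged from 158 to 697 FPKM in footpad and from 0.0386 to 1.29 in back skin.

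The other members differed less. Krt10 and Krt1 of unirradiated wild-type skin were 12.8 and 10.5 times as high in footpad as in back skin, and 15.9 and 21.8 times in Krt17 knockout skin. Krt14 was 2.39 times as high in wild-type and 1.87 times in Krt17 knockout footpad. Krt5 was nearly level, at 1.19 and 1.18 times. Krt15 was lower in footpad, at 152 FPKM in Krt17 knockout and 136 in wild-type mice, against 733 and 536.3 in back skin. In bulk skin, fewer cells of a type and less RNA per cell cannot be told apart, and back skin held hair keratin-associated transcripts at 8.57% to 25.1% of its FPKM total, against at most 0.0233% in footpad.

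**Figure D1:**
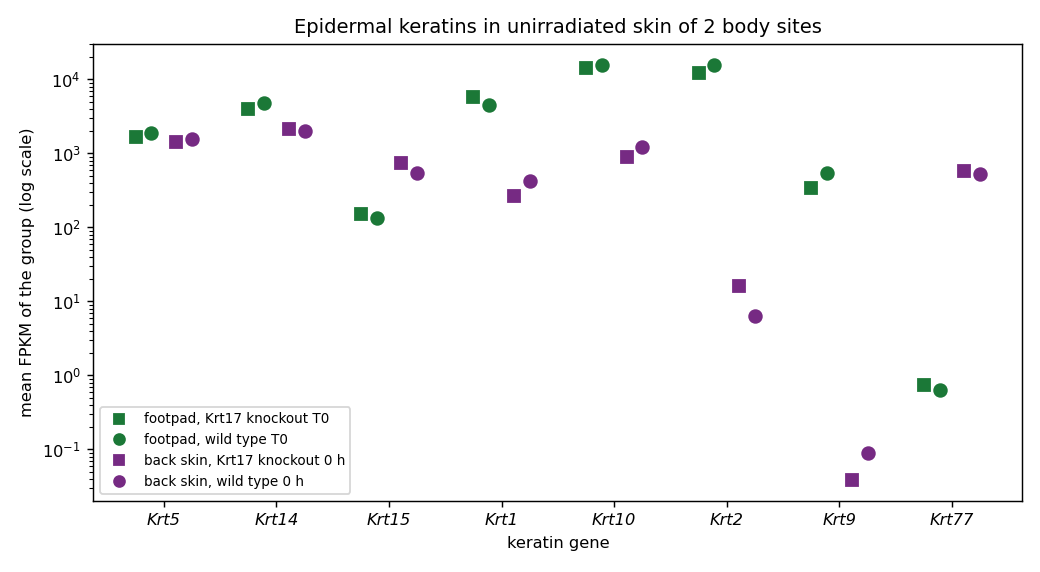
Mean FPKM (log axis) of the 8 keratins in unirradiated skin, with footpad in green left of back skin in purple, squares for Krt17 knockout and circles for wild type. Krt9 and Krt2 sit high in footpad, Krt77 sits high in back skin (526 and 585 FPKM), and Krt5 sits nearly level.

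The order of the levels differed between the sites. In wild-type footpad at T0 the levels ran from Krt10 (15742 FPKM) and Krt2 (15697) to Krt14 (4844), Krt1 (4462), Krt5 (1855), Krt9 (549), Krt15 (136) and Krt77 (0.64). Krt10 and Krt2 were close there, as were Krt14 and Krt1, and in Krt17 knockout footpad Krt1 (5700.5) stood above Krt14 (4001). In wild-type back skin at 0 h they ran from Krt14 (2025) and Krt5 (1564) to Krt10 (1229), Krt15 (536.3), Krt77 (526), Krt1 (425), Krt2 (6.32) and Krt9 (0.0898). Krt15 and Krt77 were close there and changed places between groups. Krt10 ranked first among all keratins in 7 of the 8 footpad columns, the exception being the wild-type T3 column where it was missing.

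The 40 Gy footpad series asked what happened to these keratins as irradiated skin passed T3, T6 and T9. The basal type I keratin Krt14 had a high column in each genotype, at different times. Over T0, T3, T6 and T9 its FPKM was 4001, 4529, 9229 and 5428 in Krt17 knockout footpad, and 4844, 4999, 5647 and 9535 in wild-type footpad. Its high columns were thus T6 in the knockout and T9 in wild type, and the other 6 columns lay between 4001 and 5647. Neutrophil markers (S100a8, S100a9, Ly6g and Retnlg) summed to 3099 FPKM at T6 in the knockout and 3256 at T9 in wild type, and to between 9.48 and 337 in the other 6 columns. Nearly all of both high sums was S100a8 (2476 and 2354 FPKM) and S100a9 (623 and 901), which stressed epidermis also makes, while Ly6g and Retnlg stayed below 1 FPKM in every footpad column. Their part in the Krt14 values was not tested. Its type II partner Krt5 did not share this peak. Krt5 stood at 1682, 1927, 2075 and 2422 FPKM in the knockout series and at 1855, 2037, 2353 and 2048 in the wild-type series.

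Krt14 at T6 against T0 in Krt17 knockout footpad was the 1 irradiated value at or above 2-fold among the members of that tissue (log2 ratio 1.21), where 3.98% of all genes were 2-fold or more higher. In wild-type footpad at T9 it came just short, at 0.98, against 3.14% of all genes higher. Krt6a, Krt6b and Krt16, the keratins of wounded epidermis, were high in the same columns. Krt16 stood at 49.5, 200, 4574 and 1577 FPKM in the knockout series and at 57.5, 407, 677 and 4938 in the wild-type series. Summed over Krt6a, Krt6b, Krt16 and Krt17, the stress keratins reached 12410.4 FPKM at T6 in the knockout and 13463 at T9 in wild type, and 3495 or less elsewhere. As Krt14 shares windows with Krt16, the part of shared reads in the Krt14 values was not tested.

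Krt15 was below T0 in all 6 irradiated footpad columns. Its FPKM over the series was 152, 125, 73 and 135 in Krt17 knockout footpad, and 136, 55.9, 113 and 107 in wild-type footpad. It was 2-fold or more lower at T6 in the knockout (log2 ratio -1.05) and at T3 in wild type (-1.26). The background share of lower genes was 2.23% in the first and 1.62% in the second of these comparisons. The wild-type value at T3 comes from the column in which Krt10 and Krt2 were listed at 0.

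Of the early suprabasal pair, Krt1 was above T0 and Krt10 near or below it. Krt1 stood at 5700.5, 6774, 6877 and 9486 FPKM in the knockout series and at 4462, 5645, 6440.4 and 6486 in the wild-type series. Its 6 log2 ratios to T0 lay between 0.25 and 0.73, none at 2-fold. Krt10 stood at 14341, 16376, 10460.5 and 13269 FPKM in the knockout series and at 15742, 16568 and 14379 at T0, T6 and T9 in the wild-type series. The Krt10 to Krt1 ratio was 2.52, 2.42, 1.52 and 1.4 over the knockout series, and 3.53, 2.57 and 2.22 at T0, T6 and T9 in wild type. It was therefore lower at T6 and T9 than at T0 in each genotype.

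Krt2, the keratin of the upper layers, was lower at T9 than at any earlier point measured in each genotype. It stood at 12261, 11353, 6628 and 5383 FPKM in the knockout series and at 15697, 13889.9 and 10199 at T0, T6 and T9 in the wild-type series. At T9 against T0 its log2 ratio was -1.19 in the knockout, past 2-fold where 1.76% of all genes were lower, and -0.62 in wild type, where 1.63% were. The ratio of Krt2 to Krt5, which does not depend on how a column is scaled, was 7.29, 5.89, 3.19 and 2.22 in the knockout series and 8.46, 5.9 and 4.98 at T0, T6 and T9 in wild type. All measured points of a series were thus in falling order.

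Krt9, the sole keratin, ran apart in the genotypes. Its FPKM over the series was 335, 326, 163 and 158 in Krt17 knockout footpad, and 549, 586, 697 and 516 in wild-type footpad. The knockout's log2 ratios to T0 at T6 and T9 were -1.04 and -1.08, and wild type had 0.34 and -0.09. Krt77 stayed below 1 FPKM throughout and did not pass the filter of 1 FPKM in footpad.

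Over the footpad irradiation comparisons, 40 member values could be compared, of which 1 was 2-fold or more higher and 5 were lower. In Krt17 knockout footpad, 0 of 7 members were past 2-fold at T3, 3 at T6 and 2 at T9. In wild-type footpad, 1 of 5 was at T3 and 0 of 7 at T6 and T9. Background shares in these 6 comparisons, for either direction, were 3.12%, 6.21%, 4.01%, 3.15%, 3.82% and 4.78%. Against the mean of the controls of both genotypes, Krt15 in the knockout at T6 was at -0.97, short of 2-fold, while Krt14 in wild type at T9 and Krt2 in the knockout at T6 passed it, at 1.11 and -1.07.

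**Figure D2:**
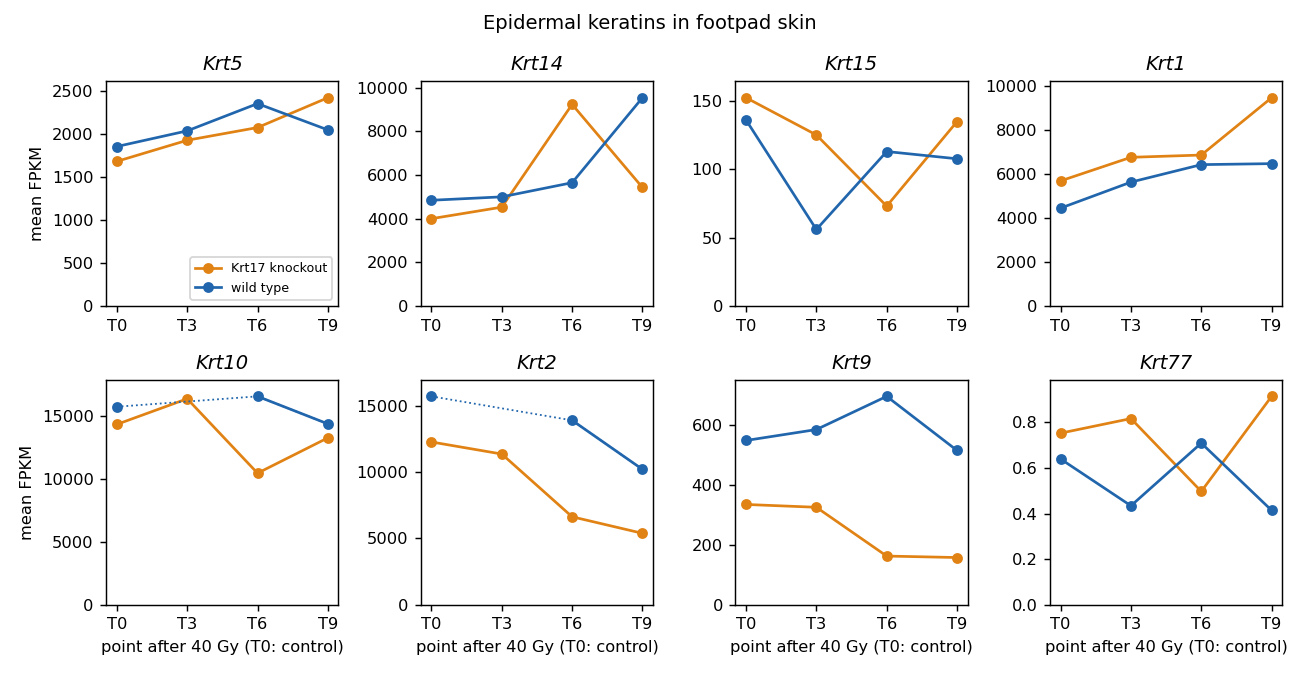
Mean FPKM (linear axes from 0) of each keratin in footpad by point after 40 Gy, Krt17 knockout in orange and wild type in blue, dotted across the wild-type T3 column where Krt10 and Krt2 were missing. Krt14 peaks at 9229 FPKM at T6 in the knockout and at 9535 at T9 in wild type, and Krt9 is lower in the knockout at every point.

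The ratio of Krt10 to Krt14, suprabasal to basal type I keratin, had its low columns where Krt14 was high. It was 3.58, 3.62, 1.13 and 2.44 at T0, T3, T6 and T9 in Krt17 knockout footpad, and 3.25, 2.93 and 1.51 at T0, T6 and T9 in wild-type footpad. The Krt14 to Krt5 ratio was 4.45 at T6 in the knockout and 4.66 at T9 in wild type, and 2.24 to 2.61 in the other 6 footpad columns. By contrast the type II ratio of Krt1 to Krt5 stayed between 2.41 and 3.92 in footpad. In back skin the Krt10 to Krt14 ratio was 0.508, 0.557 and 0.441 at 0, 6 and 24 h in p53 knockout, 0.421, 0.656 and 0.271 in Krt17 knockout and 0.607, 0.759 and 0.307 in wild-type mice. In each genotype it was highest at 6 h and lowest at 24 h. The part of follicle cells in these back skin ratios was not tested.

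**Figure D3:**
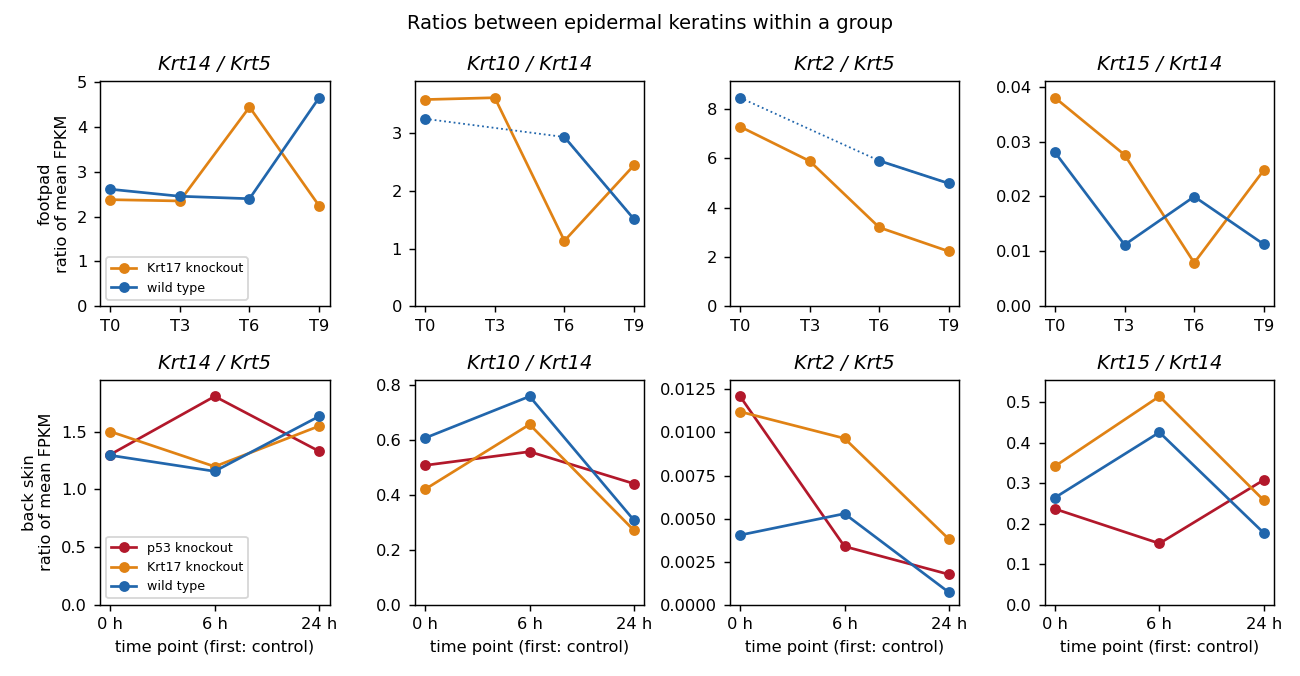
Ratios of mean FPKM between keratins of the same column, footpad in the upper and back skin in the lower row, by genotype and time (linear axes from 0). Krt14 over Krt5 stands out at T6 in Krt17 knockout (4.45) and T9 in wild-type footpad (4.66), and Krt10 over Krt14 is lowest at 24 h in every genotype of back skin.

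The comparison of Krt17 knockout with wild-type footpad asked whether losing this keratin altered the others. Krt9 was lower in the knockout at all 4 points, with log2 ratios of -0.71, -0.84, -2.09 and -1.70 at T0, T3, T6 and T9. It was past 2-fold at T6 and T9, where 0.769% and 1.21% of all genes were 2-fold or more lower. The difference at T0 was already lower than that of all but 1.16% of genes. Krt2 was lower in the knockout at T0, T6 and T9 as well, at -0.36, -1.07 and -0.92, past 2-fold at T6. Krt1 was higher in the knockout at each point, with log2 ratios of 0.09 to 0.55, and Krt10 was lower at T0, T6 and T9, at -0.66 to -0.12.

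Krt14 and Krt15 changed sides with time. Krt14 had log2 ratios, knockout over wild type, of 0.71 at T6 and -0.81 at T9. Krt15 had a log2 ratio of 1.15 at T3, where 1.81% of all genes were 2-fold or more higher, and of -0.62 at T6. The T3 value rests on the wild-type column with listed zeros. In all, 0 of 7 members were past 2-fold at T0, where 1.42% of all genes were in either direction, and over the 4 points 1 of 26 member values was higher and 3 were lower. The 3 lower ones were Krt9 at T6 and T9 and Krt2 at T6. In either direction, the share of all genes was 2.37% at T3 (1 of 5 members), 2.69% at T6 (2 of 7) and 2.32% at T9 (1 of 7). Skeletal muscle markers (6 genes) summed to between 184 and 529 FPKM in the 4 knockout columns and between 80.7 and 206 in the 4 wild-type columns. Their part in these differences was not tested.

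**Figure D4:**
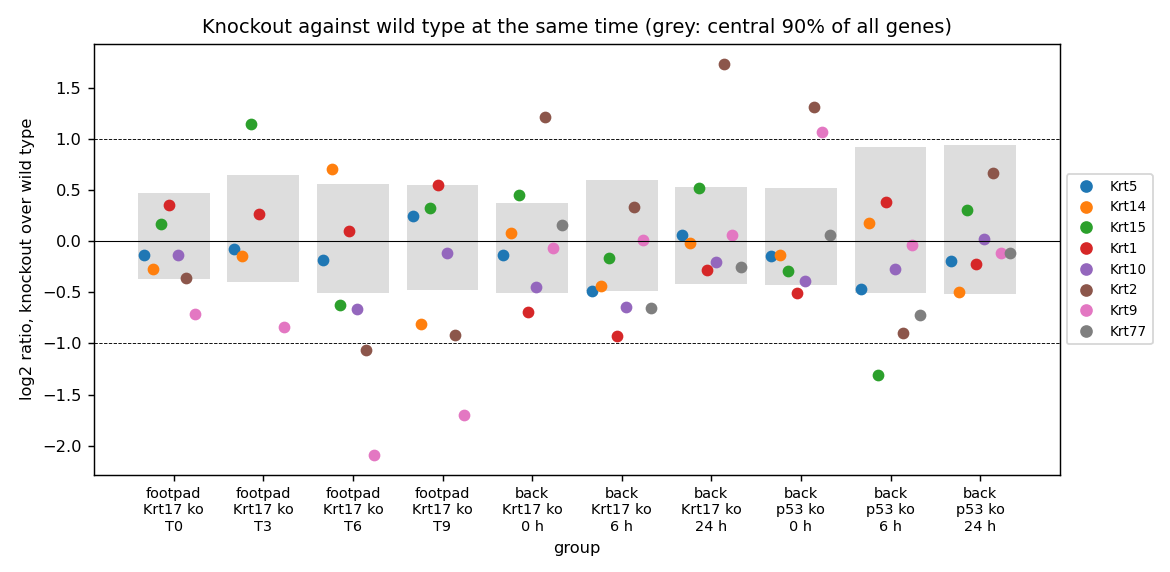
Log2 ratios of (FPKM + 1), knockout over wild type at the same time, for each keratin (coloured points, members at 1 FPKM or more in the tissue), with grey bars for the central 90% of all genes and dashed lines at 2-fold. Krt9 lies below the grey bar in each of the 4 footpad comparisons, reaching -2.09 at T6, and Krt2 lies above it in unirradiated back skin of both knockouts.

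In back skin, 5 Gy was followed after 6 h by lower Krt5 and Krt14, and after 24 h by levels of this pair nearer to the controls. Over 0, 6 and 24 h, the FPKM of Krt5 was 1415, 855 and 1292 in p53 knockout, 1426, 842 and 1545 in Krt17 knockout and 1564, 1182 and 1484 in wild-type mice. The 6 h columns were the 3 lowest of the 9. Krt14 stood at 1841, 1544 and 1718 FPKM in p53 knockout, at 2140.1, 1009 and 2393 in Krt17 knockout and at 2025, 1366 and 2422 in wild-type mice. Here too the 6 h column was the lowest of each genotype. Of this pair, only Krt14 in the Krt17 knockout passed 2-fold at 6 h (log2 ratio -1.08), where 1.11% of all genes were lower. Against the mean of the controls of all 3 genotypes it was -0.99, short of 2-fold.

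Other genes of the basal layer were set beside this dip. Of 12 such genes, among them integrins and Trp63, a master regulator of the epidermis, 0 were past 2-fold at 6 h in any genotype. This is near the share of all genes, which was 3.15% in p53 knockout, 2.73% in Krt17 knockout and 4.99% in wild-type skin. Krt5 was not past 2-fold either, and Krt14 was so only in the Krt17 knockout. Median log2 ratios of the 12 genes at 6 h were 0.21 in p53 knockout, -0.13 in Krt17 knockout and 0.03 in wild-type skin, beside medians over all genes of 0.02, -0.04 and -0.15. Krt5 at 6 h had -0.73, -0.76 and -0.40 in these genotypes and Krt14 had -0.25, -1.08 and -0.57. Of all genes, 2.76%, 2.88% and 26.5% had a lower log2 ratio than Krt5 in these genotypes. For Krt14 the shares were 18.9%, 0.805% and 15.7%, so in wild type many genes were lower than this pair. Hair shaft markers (12 genes) summed to 3372, 8050.2 and 7305 FPKM at 6 h in p53 knockout, Krt17 knockout and wild-type skin, against 5103, 7569 and 7069 at 0 h. Skeletal muscle markers (6 genes) were higher at 6 h in each genotype, at 3841, 5269 and 4686 FPKM, against 3162, 4233 and 2178 at 0 h. Markers of cell division (Mki67, Top2a, Ccnb1 and Cdk1) were lower at 6 h in each genotype, at 163, 88.3 and 69.9 FPKM, against 192, 156 and 148 at 0 h. The part of these marker groups in the 6 h keratin values was not tested.

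The FPKM of Krt15 over these times was 436, 234 and 530.3 in p53 knockout, 733, 520 and 617 in Krt17 knockout and 536.3, 582 and 430 in wild-type mice. The p53 knockout column at 6 h was the lowest of the 9. Its log2 ratio to 0 h was -0.90, short of 2-fold, and -1.24 against the mean of all back skin controls, past it.

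The suprabasal pair had its lowest values mostly at 24 h. Krt10 was below 0 h in all 6 irradiated columns. It had 935, 860 and 757 FPKM in p53 knockout, 900.1, 662 and 647 in Krt17 knockout and 1229, 1037 and 745 in wild-type mice. Krt1 stood at 299, 367 and 218 FPKM in p53 knockout, at 262, 147 and 209 in Krt17 knockout and at 425, 281 and 255 in wild-type mice. In wild-type skin at 24 h the log2 ratios of Krt1 and Krt10 were -0.74 and -0.72, against a median over all genes of -0.20. Hair keratin-associated transcripts went from 13.1% of the FPKM total at 0 h to 25.1% at 24 h in wild type. In Krt17 knockout they went from 14% to 22.3%, and in p53 knockout from 13% to 10.7%. Fibroblast markers (6 genes) went from 1995 to 650 FPKM, 1593 to 778 and 978 to 1056 in these genotypes. The part of such shifts in the 24 h keratin values was not tested. Krt77 stood at 546, 425 and 464 FPKM in p53 knockout, at 585, 448 and 422 in Krt17 knockout and at 526, 703 and 505 in wild-type mice. Wild type at 6 h was thus its highest column. No value of Krt1, Krt10 or Krt77 was past 2-fold against its own control. Against the mean of all back skin controls, Krt1 in the Krt17 knockout at 6 h was, at -1.12.

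Krt2 was scarce in back skin but accounted for most 2-fold calls there. Its FPKM over these times was 17.1, 2.9 and 2.28 in p53 knockout, 16, 8.13 and 5.88 in Krt17 knockout and 6.32, 6.25 and 1.07 in wild-type mice. Each series was in falling order, though wild type was nearly level at 6 h (log2 ratio -0.02). The log2 ratios at 24 h were -2.47, -1.30 and -1.82 in p53 knockout, Krt17 knockout and wild type. The Krt17 knockout value was -0.93 against the mean of all back skin controls. Shares of all genes 2-fold or more lower at 24 h were 1.09%, 1.15% and 3.46% in these genotypes. At 6 h the p53 knockout was also past 2-fold, at -2.22, where 1.03% of genes were lower. Over the 6 back skin comparisons, 0 of 48 member values were 2-fold or more higher and 7 lower: 4 of Krt2, 2 of Krt9 and 1 of Krt14. In wild-type skin at 6 h, 0 of 8 members were past 2-fold, against 4.99% of all genes in either direction. Counted likewise, the share of all genes was 2.73% in Krt17 knockout skin at 6 h, where 1 of 8 members passed, 2.8% in the same knockout at 24 h (1 of 8) and 5.61% in wild-type skin at 24 h (1 of 8). It was 3.15% in p53 knockout skin at 6 h (2 of 8) and 2% there at 24 h (2 of 8). All these members were lower, and both p53 knockout counts include Krt9, which passed the filter only through the p53 knockout control.

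The Krt9 calls rest on a single control. Krt9 stood at 1.29, 0.0395 and 0.0569 FPKM in p53 knockout, at 0.0386, 0.0731 and 0.2 in Krt17 knockout and at 0.0898, 0.069 and 0.149 in wild-type back skin. Only the p53 knockout control exceeded 0.2 FPKM, and Krt9 passed the filter through that column alone. Krt24, a type I keratin high in footpad (746 to 3259 FPKM), behaved alike, at 5.01 FPKM in the p53 knockout control and 0.157 to 0.855 in the other 8 back skin columns. Krt2 was at its highest, 17.1 FPKM, in the same control.

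**Figure D5:**
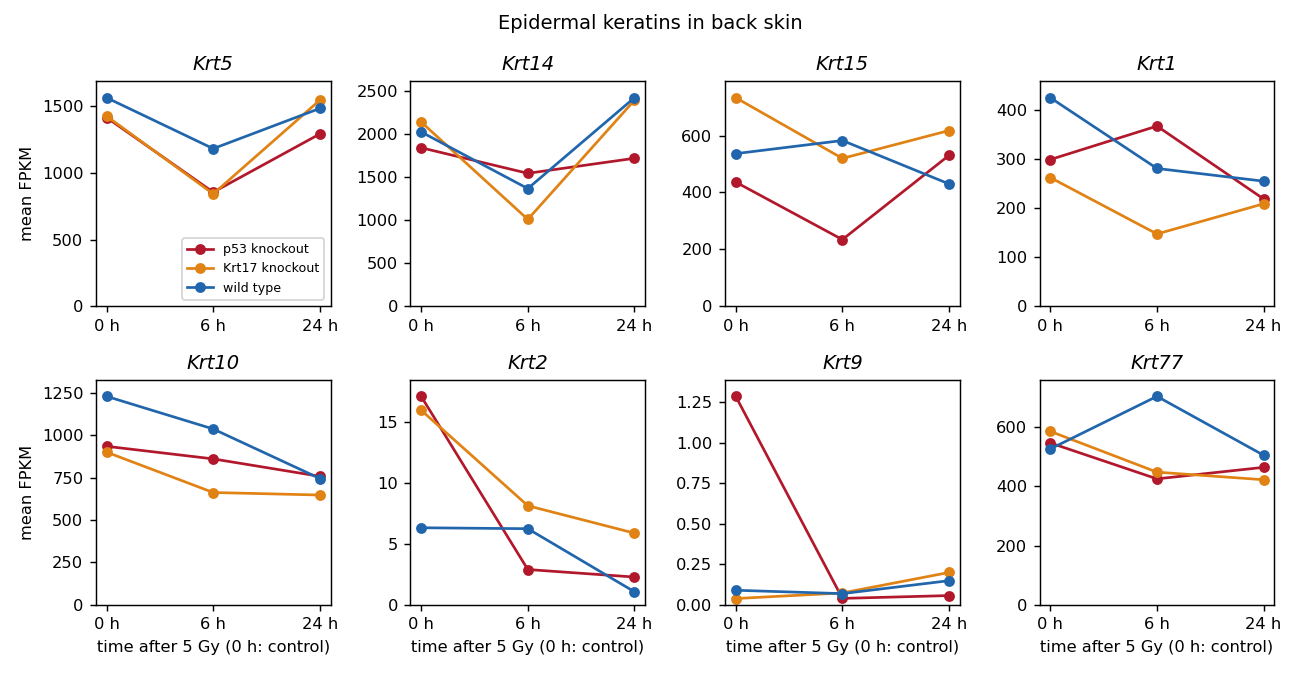
Mean FPKM (linear axes from 0) of each keratin in back skin by time after 5 Gy, p53 knockout in red, Krt17 knockout in orange and wild type in blue. Krt5 and Krt14 dip at 6 h in each genotype, Krt2 is lowest at 24 h in each, and Krt9 exceeds 0.2 FPKM only in the p53 knockout control (1.29).

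Between genotypes of back skin, 4 of 48 member values were 2-fold or more higher in a knockout and 1 was lower. Krt2 was higher before irradiation in both knockouts, at log2 ratios of 1.31 in p53 knockout and 1.21 in Krt17 knockout over wild type, where 1.13% and 0.932% of all genes were higher. These ratios share the same wild-type control, at 6.32 FPKM. At 6 h Krt2 had 0.33 in Krt17 knockout and -0.90 in p53 knockout over wild type. At 24 h it had 0.66 in p53 knockout and 1.73, past 2-fold, in Krt17 knockout, where 1.13% of all genes were higher. The wild-type value at 24 h was 1.07 FPKM, close to the filter of 1 FPKM. Krt9 in the p53 knockout control was the fourth (1.07), and Krt9 passed the filter only through that column. Krt15 at 6 h in the p53 knockout, at -1.31, was the lower one, where 1.11% of all genes were. Krt1 was lower in the Krt17 knockout than in wild type at 0, 6 and 24 h, at -0.69, -0.93 and -0.29, whereas in footpad it was higher in this knockout at every point. Whether the sites differ in this was not tested. In p53 knockout over wild type at 24 h, and in Krt17 knockout over wild type at 6 h, 0 of 8 members were past 2-fold, where 6.09% and 2.16% of all genes were in either direction. That share was 1.77% for p53 knockout over wild type at 0 h (2 of 8 members) and 5.2% at 6 h (1 of 8). For Krt17 knockout over wild type it was 1.62% at 0 h and 2.2% at 24 h (1 of 8 each).

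Of other epidermal genes, the lists of basal partners, of spinous and granular layers and of regulators held few 2-fold differences. The stress keratins given above are not among these lists. Over the 22 comparisons, 1.42% to 6.21% of all genes were past 2-fold. A count of 0 or 1 in lists this short lies near that share. Of 12 basal partner genes, 1 was 2-fold or more higher and 1 lower at T6 against T0 in Krt17 knockout footpad, and 1 was higher at T6 in Krt17 knockout over wild-type footpad. The lower one was Dlk2, a Notch-related membrane protein gene (3.53 against 11.4 FPKM), which was also lower in the knockout at T9 and in wild type at T3. The list's medians over the footpad irradiation comparisons lay between 0.01 and 0.61. Of 20 measured genes of the spinous and granular layers, 19 in the comparisons with T3, at most 1 passed 2-fold in any comparison, and their summed FPKM lay between 54546 and 63333 in footpad and between 8871 and 13521 in back skin. In footpad these were Hrnr, lower at T9 in the knockout (477 against 1073 FPKM at T0), Dsc1, a desmosome protein, higher at T3 in wild type (425 against 204), and Tgm3, a crosslinking enzyme, higher at T9 in wild type (153 against 73.8). In Krt17 knockout over wild-type footpad they were Flg2 at T0 (17.2 against 36.7 FPKM) and Tgm3 at T6 (155 against 75.3). Casp14, a protease of the cornifying layer, was the one in back skin at 24 h, at 26.9 against 63.7 FPKM at 0 h in Krt17 knockout and at 30.1 against 88.6 in wild-type mice. In back skin over wild type it was Krtdap in p53 knockout at 0 h (7726 against 3545 FPKM), and Casp14 at 6 h in p53 knockout and in Krt17 knockout (38.7 in each, against 79.2). Of 17 measured regulators of epidermal differentiation, 0 passed 2-fold in any irradiation comparison, and Notch1 alone passed in a genotype comparison (17.7 FPKM in p53 knockout against 36.7 in wild-type back skin at 6 h).

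Likeness of pattern was taken as Pearson's r of log2(FPKM + 1) over the group columns of a tissue, which share genotypes and controls, and is a description of few columns. The closest genes were picked by r from 1782 or 1783 candidates in footpad and 3086 or 3087 in back skin. Some members varied less than the SD of 0.3 asked of candidates: Krt5 (0.17) and Krt10 (0.23) in footpad, and Krt77 (0.24) in back skin. Over 7 footpad columns, Krt2 was most like Krba1 (r = 0.99, Spearman's rho = 0.96), the keratin Krt24 (0.98 and 1) and Scgb1b27, a secretoglobin gene (0.96 and 0.89). Over 8 footpad columns Krt14 was most like Epgn, an EGF receptor ligand (r = 0.96, rho = 0.81), Cemip, a hyaluronan-degrading protein (0.96 and 0.95), and Ccl2, a monocyte attractant (0.96 and 0.95). Krt9 was most like Rasal1 (r = 0.93), Adamts13 (0.89) and Engase (0.88), and Krt1 like Vsnl1 (0.97), Mrps22 (0.93) and Eci2 (0.93). Krt5 was most like Ctsh (0.91), B2m (0.90) and Sec14l2 (0.89), Krt15 like Lime1 (0.90), Sod1 (0.90) and Mt2 (0.89), and Krt10, over 7 columns, like Phyhip (0.98), Lime1 (0.92) and Rtn4r (0.90). In back skin, over 9 columns, Krt77 was most like Cd207, the langerin gene of Langerhans cells (r = 0.87, rho = 0.88), followed by Hdac11 (0.81) and Gpsm2 (0.79). The closest gene there was Vwa1 for Krt5 (0.97), Ccl8 for Krt14 (0.93), Gal3st1 for Krt15 (0.90), Selplg for Krt1 (0.88), Tenm4 for Krt10 (0.91), Fam57b for Krt2 (0.93) and Krt24 for Krt9 (0.96), the last set by the p53 knockout control.

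Among the members themselves, the textbook pairs were more alike in back skin than in footpad. Krt14 and Krt5 had r = 0.85 over 9 back skin columns and 0.36 over 8 footpad columns, and Krt10 and Krt1 had 0.83 over 9 and -0.36 over 7. In footpad the closest pair was Krt9 with Krt2, at r = 0.89 over 7 columns. Krt10 there had 0.78 with Krt9 and 0.76 with Krt2. These values were not tested against each other.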

How the data were processed

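RNA from footpad and back skin was sequenced. Per the submitters' processing notes, TopHat2 2.1.0, Cufflinks 2.2.1 and the mm10 genome were used. The authors deposited mean FPKM per group of 2 samples in 2 tables of 47633 genes, 1 for each body site. Single-sample values were not analysed here, 0 per-sample columns were left unused, and the labels do not say whether the samples of a group came from separate animals. Depth is unknown, so no interval can be given. Limma had been planned for single-sample columns, and the planned fallback without a test was used instead. Genes with 1 FPKM or more in at least 1 column of a tissue were compared, as log2 ratios with a pseudocount of 1 FPKM, which understate changes of scarce genes. A listed 0 was treated as missing where the gene's median over the other columns of the tissue was 5 FPKM or more. All 8 members were named. Genes most alike were the 3 with the highest Pearson's r among genes reaching 5 FPKM with an SD of log2 values of at least 0.3. Other genes named were members past 2-fold of the basal, spinous and granular, and regulator lists (1 is not reported here), genes that check labels, and keratins beside a result. The members and lists were chosen with earlier results of these data known, and the Krt14 to Krt5 and Krt10 to Krt1 ratios were added after the values had been seen. The calculation was tested on simulated data. Python 3.11.15, numpy 2.4.6, pandas 2.3.3 and matplotlib 3.10.9 were used.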

Additional observations from a re-analysis of the deposited data

Results flagged for a closer look

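In 3 cases a keratin went in opposite directions after irradiation in a knockout and in wild type, with the log2 ratios more than 1 apart. None of these differences was tested, since only group means were used. Krt9 in footpad at T6 against T0 had a log2 ratio of -1.04 in Krt17 knockout and 0.34 in wild type, a difference of -1.38. Krt15 in back skin at 6 h against 0 h had -0.90 in p53 knockout and 0.12 in wild type, a difference of -1.01. Krt9 in back skin at 24 h against 0 h had -1.11 in p53 knockout and 0.08 in wild type, a difference of -1.19. The last rests on the p53 knockout control, at 1.29 FPKM, the one back skin column in which Krt9 exceeded 0.2 FPKM.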

How the results depend on the processing

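No paired analysis was possible because the values are means of each group, and for the same reason no replicate could be left out. Counts of members past 2-fold moved as follows, and no direction of a called value was reversed under any alternative. With listed zeros kept as 0, the count was 3 in place of 1 both in wild-type footpad at T3 against T0 and in Krt17 knockout over wild-type footpad at T3. With a filter of 5 FPKM it was 1 in place of 2 in p53 knockout back skin at 6 h and at 24 h, and in p53 knockout over wild type at 0 h, because Krt9 was no longer compared. With a pseudocount of 0.1 FPKM it was 2 in place of 1 in Krt17 knockout back skin at 24 h (Krt9 at 1.11) and in p53 knockout over wild type at 6 h (Krt2 at -1.08), and 1 in place of 0 in p53 knockout over wild type at 24 h (Krt2 at 1.02). With columns rescaled by their median ratio it was 2 in place of 1 in Krt17 knockout over wild-type footpad at T9 (Krt2 at -1.01) and in p53 knockout over wild-type back skin at 6 h (Krt2 at -1.03). This p53 comparison also had 2 with columns rescaled to the total without Krt and Krtap genes. Against the mean of all unirradiated columns of a tissue, an alternative chosen after seeing the data, the count was 1 in place of 0 in wild-type footpad at T9 (Krt14 at 1.11), 1 in place of 2 in p53 knockout back skin at 24 h and 0 in place of 1 in Krt17 knockout back skin at 24 h. Under it 5 values lost the 2-fold call: Krt15 in Krt17 knockout footpad at T6 (-0.97), Krt9 in p53 knockout back skin at 6 h and 24 h (-0.40 and -0.38), and Krt14 at 6 h (-0.99) and Krt2 at 24 h (-0.93) in Krt17 knockout back skin. Under it 4 values gained the call: Krt14 as above, Krt2 in Krt17 knockout footpad at T6 (-1.07), and in back skin at 6 h Krt15 in p53 knockout (-1.24) and Krt1 in Krt17 knockout (-1.12). The change of the Krt10 to Krt14 ratio from control kept its direction in 11 comparisons with a ratio of FPKM + 1. With the summed suprabasal over basal keratins it did so except at T3 in Krt17 knockout footpad (log2 change 0.013, and -0.078 with the sums).

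The share of all genes past 2-fold was 1.42% to 6.21% over 22 comparisons, and 3.96% to 12.4% with a pseudocount of 0.1 FPKM, with the number of genes called moving by over 1.5 times in all 22. With a filter of 5 FPKM it was 1.18% to 6.53% (the number moved so in 15), and without Krt and Krtap genes in the total 1.48% to 8.17% (in 2). With no filter it was 0.412% to 1.92%, over more genes tested, and the number called moved so in 0. Among genes past 2-fold in wild-type back skin, 35.6% were higher at 6 h and 38.2% at 24 h. These shares were 53.4% and 62.7% by median ratio, and 23.8% and 24.4% without Krt and Krtap genes in the total. By median ratio they were 71.2% in place of 58.8% in Krt17 knockout back skin at 24 h, and 63.8% in place of 78.6% at 6 h and 46.6% in place of 69.6% at 24 h in p53 knockout over wild type. Without Krt and Krtap genes they were 48.3% in place of 59.3% in Krt17 knockout back skin at 6 h and 47.9% in place of 63.9% in p53 knockout over wild type at 0 h. The cause of these moves was not tested.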
